A study of Mus musculus with 6 samples.

Results

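The glutathione S-transferases were followed here across 6 libraries of CD31-positive mouse liver cells. The 10 genes were taken by symbol from a deposited table of 13595 genes: Gsta1, Gsta4, Gstm1, Gstm2, Gstm5, Gstp1, Gsto1, Gstt1, Mgst1 and Mgst3, and all 10 were present. A further 17 genes of the wider family were also in the table, out of 23 listed. CD31 is a surface protein by which endothelial cells are commonly selected. The cells came from livers of C57BL6/J mice that were 4 weeks old, and were cultured after isolation. Every culture then received 100 µM indoxyl sulfate, a tryptophan metabolite that activates the aryl hydrocarbon receptor (AHR), and was placed under hypoxia with nutrients withdrawn for 6 hours. There were 3 libraries labelled male and 3 labelled female, so sex under this treatment was the contrast, and no untreated group was analysed here. Libraries are named by their label and replicate number, for example male 4. The labels do not say whether replicates were separate animals or wells, so p-values measure only the spread between these libraries, which may be technical.

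Glutathione S-transferases join the tripeptide glutathione to reactive, electrophilic compounds, which makes these more soluble and ready for export. The soluble enzymes form classes named by Greek letters (alpha, mu, pi, omega, theta and others), and a separate group of small proteins in the membranes of the endoplasmic reticulum and mitochondria includes the microsomal transferases. Several of the genes are known targets of NRF2, the transcription factor of the antioxidant response, and Gsta1 is a classical target of AHR. In whole liver, alpha and mu enzymes are best known from hepatocytes.

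Depth ran from 22303270 to 31189363 recovered reads per library, at which 3 reads corresponded to a normalized read count of 0.106 to 0.142. The sex labels were only partly matched: Xist was at 234 to 324 in the libraries labelled female and at 0.124 to 0.458 in those labelled male, but the Y-linked genes Ddx3y, Uty, Eif2s3y and Kdm5d were read at 91.5%, 89.6%, 51.3% and 54.8% of their male level in the libraries labelled female. Every direction below is therefore that of libraries labelled so. Male 4 stood apart from its group: edgeR's biological coefficient of variation for the male libraries dropped from 0.135 to 0.0548 once male 4 was removed, beside 0.0657 for the female libraries.

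Cell type markers moved with the same contrast. Counts of called genes here and below are read beside the table as a whole, in which 69.3% of the 12568 genes tested were called, 34.6% in each direction. Of 14 tested endothelial markers 12 were lower and 1 was higher in the libraries labelled female, and the summed level of the list was 1231 to 1286 there against 2414 to 2531. The CD31 gene, Pecam1, read 73.5 to 74.5 against 391 to 423. The 4 tested markers of sinusoidal endothelium were all lower, with sums of 13.9 to 20.4 against 612 to 685; Clec4g was at 0 in the male and Fcgr2b at 0 in the female libraries. Of 11 tested stellate and mural markers 7 were higher and 3 lower, with sums of 5390 to 6364 against 1347 to 2021 and Cygb at 0 in the female libraries. Acta2, a smooth muscle actin, was at 1513 to 1887 against 45.9 to 134, whereas Pdgfrb was at 13.0 to 15.3 against 129 to 136. Of 12 tested fibroblast and mesothelial markers 4 were higher and 8 lower, with sums of 1423 to 1435 against 3172 to 3799 and Upk3b at 0 in the male libraries. The mesothelial gene Msln was at 299 to 358 against 17.1 to 20.6. Acta2 and Msln were picked out after their values were seen. Of 11 hepatocyte markers in the table, Trf and Ahsg passed the filter and both were lower, the sums being 50.5 to 59.9 against 89.7 to 110. Alb was at 0 to 0.0830 against 0.572 to 0.600, Serpina1b was at 0 in all 6 libraries and Ttr at 0 in the female ones, whereas Cps1 was at 0 in the male ones. Of 5 tested cholangiocyte markers 4 were lower and 1 higher (sums 510 to 613 against 1641 to 2489). Both tested macrophage markers were higher (sums 13.2 to 15.8 against 7.51 to 10.1), with Vsig4, Marco and Ptprc at 0 in the male and Cd5l and C1qa at 0 in the female libraries. The part of these cell markers in the results below was not tested. In bulk libraries, fewer cells of a type and less RNA per cell cannot be told apart.

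The alpha class gave the largest difference of the 10 genes. Gsta1 encodes the alpha subunit induced by AHR ligands. It was read at 0.912, 0.991 and 1.38 in male 4, 5 and 6, which is 22, 26 and 39 reads. In female 4, 5 and 6 it was at 17.9, 20.0 and 16.3, which is 431, 453 and 343 reads. The groups did not overlap, and the mean of 18.1 ± 1.87 was 16.5-fold that of 1.09 ± 0.249 (SD, n = 3). On the log2(value + 1) scale used for the test the difference was 3.19 (SE 0.13, limma adjusted p 2.58e-07), and this scale understates changes of weakly read genes.

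Gsta1 has near-identical copies on chromosome 9, so the identity of its reads is uncertain. Of the 50-base stretches of its longest coding transcript, 82.9% also occur in Gm3776 and 44.6% in Gsta2, both of which are in the table. Over 669 coding bases Gsta1 and Gm3776 differ at 2, and the longest run without a mismatch is 565 bases. Gsta1 and Gsta2 differ at 13 of 666 aligned bases, with a gap of 3 bases. The lines below give 60 bases of exon 2 in Gsta1 (GRCm38, chr9:78232240-78232299, plus strand) and Gm3776 (chr9:78258712-78258771, plus strand), then 60 bases of exon 6 in Gsta1 (chr9:78241561-78241620, plus strand) and Gsta2 (chr9:78332125-78332184, minus strand). They are shown as the kind of stretch in which a read can tell the copies apart: capitals mark the mismatches of each pair, 1 of the 2 coding mismatches of Gsta1 and Gm3776 and 5 of the 13 of Gsta1 and Gsta2. The sequences are from GENCODE M21.
Gsta1, exon 2: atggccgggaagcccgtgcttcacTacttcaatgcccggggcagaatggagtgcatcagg
Gm3776, exon 2: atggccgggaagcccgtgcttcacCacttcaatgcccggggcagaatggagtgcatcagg
Gsta1, exon 6: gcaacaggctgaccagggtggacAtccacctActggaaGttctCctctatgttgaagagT
Gsta2, exon 6: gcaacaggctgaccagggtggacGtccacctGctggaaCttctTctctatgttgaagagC

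All 3 copies differed between the groups in the same direction. Gm3776, a predicted gene picked out after its shared sequence was found, was at 1.70, 1.41 and 1.27 in the male libraries and at 15.7, 22.3 and 17.6 in the female ones, a log2 difference of 2.98 (SE 0.14, limma adjusted p 6.46e-07). Gsta2 held 1, 8 and 7 reads in the male libraries and 78, 75 and 81 in the female ones. Its log2 difference was 1.90 (SE 0.13, limma adjusted p 4.87e-06). Summing Gsta1, Gm3776 and Gsta2 before the test gave 2.75 ± 0.127 against 40.1 ± 4.86 (SD, n = 3) and a log2 difference of 3.45 (limma adjusted p 8.04e-08), so the call does not depend on how reads were divided among these 3 genes. A further copy, Gm10639, which holds 30.8% of the 50-base stretches of Gsta1, was not analysed here.

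Gsta4 encodes the alpha enzyme that is most active on hydroxynonenal, an aldehyde of lipid peroxidation, and none of its 50-base stretches occurs in another gene. It was at 22.2, 22.8 and 21.3 in the male libraries and at 58.7, 65.0 and 90.4 in the female ones. The groups were apart, and female 6 lay above the other 2 of its group. The means of 71.4 ± 16.8 and 22.1 ± 0.760 (SD, n = 3) differed 3.22-fold, with a log2 difference of 1.62 (SE 0.14, limma adjusted p 1.96e-05). Gsta3, the remaining alpha gene of the table and the only one of them on chromosome 1, was at 5.57 to 5.81 in the female libraries against 2.20 to 2.71, a log2 difference of 0.93 (limma adjusted p 0.0001). Of the 4 listed alpha genes in the table, 4 were called higher in the libraries labelled female, beside 34.6% of all genes tested. Gsta1 and Gsta2, with 1 and 0 male libraries reaching a value of 1, passed the filter on low values through the female libraries, and without them 2 of 2 were called higher.

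**Figure D1:**
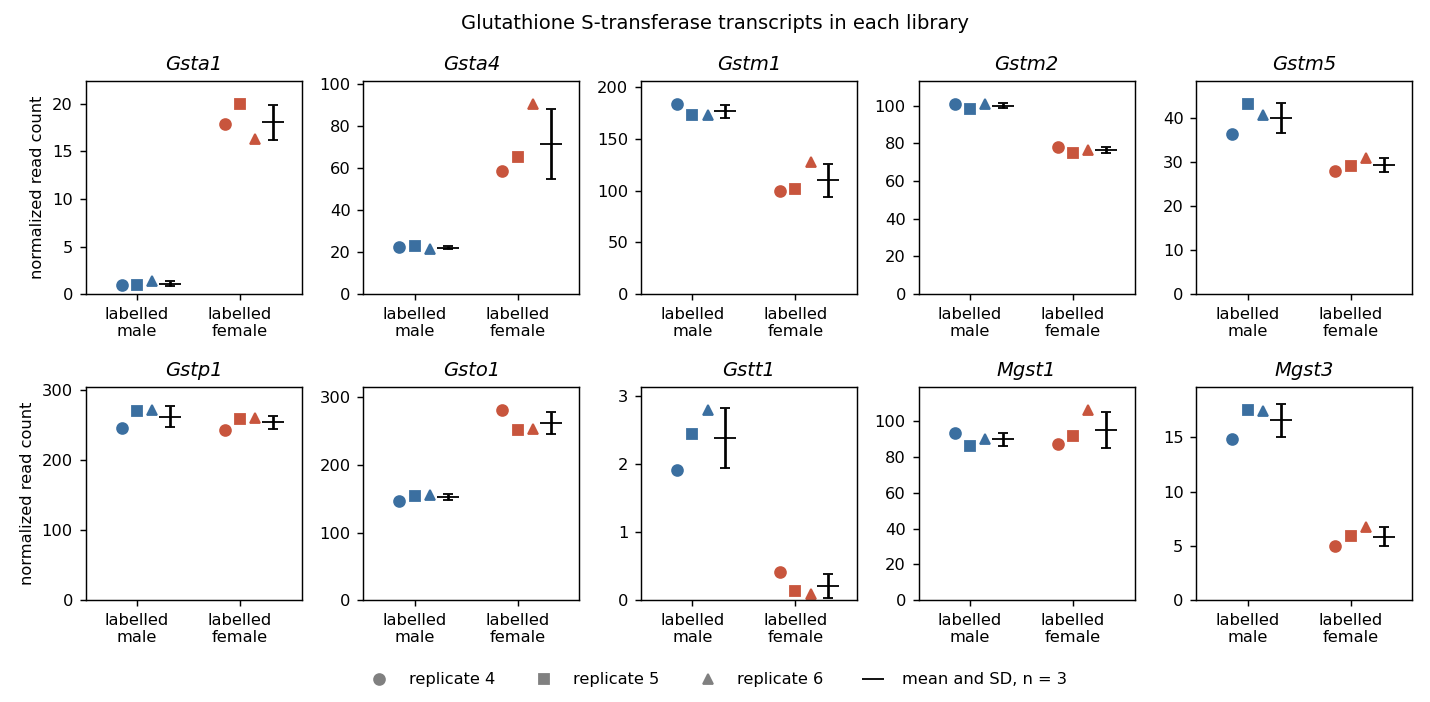
Normalized read count (vertical axes, linear from 0) of the 10 genes in the 3 libraries labelled male (blue) and the 3 labelled female (red), with marker shape for the replicate number and black bars for mean and SD. Gsta1, Gsta4 and Gsto1 sit higher in the libraries labelled female, Gstm1, Gstm2, Gstm5, Gstt1 and Mgst3 sit lower, and the points of Gstp1 and Mgst1 overlap.

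Gstm1, Gstm2 and Gstm5 of the mu class were lower in the libraries labelled female. The mu genes lie together on chromosome 3 and encode soluble enzymes with broad and overlapping substrates. Gstm1 was at 184, 173 and 173 in the male libraries and at 99.8, 102 and 128 in the female ones, which left the groups apart and female 6 nearest to the male range. The female mean of 110 ± 15.5 was 62.2% of the male mean of 177 ± 6.32 (SD, n = 3), a log2 difference of -0.69 (SE 0.10, limma adjusted p 0.000269). Gstm2 was at 101, 98.4 and 101 against 78.2, 75.1 and 76.5, with a log2 difference of -0.38 (SE 0.05, limma adjusted p 0.000328). Its spread was the same in both groups (SD 1.57, n = 3), so that a difference to 76.5% of the male level stood clear of it. Gstm5 was at 36.4, 43.2 and 40.6 against 27.9, 29.1 and 31.0, a log2 difference of -0.43 (SE 0.09, limma adjusted p 0.00199). Gstm1 and Gstm2 have few 50-base stretches in common: they have 92 mismatches over 654 coding bases, and 0.887% of the 50-base stretches of Gstm1 occur in Gstm2. Of those of Gstm1, 17.3% occur in the pseudogene Gstm2-ps1, which was not analysed here.

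Gstm7, Gstm4 and Gstm6 complete the mu class of the table. Gstm7 was at 7.34, 8.50 and 8.16 in the male libraries and at 1.74, 2.21 and 2.52 in the female ones, the largest mu difference (log2 -1.52, SE 0.13, limma adjusted p 1.37e-05). Gstm4 was at 8.83 to 13.1 against 6.84 to 9.38 and Gstm6 at 2.74 to 4.08 against 3.40 to 4.19, and neither was called (limma adjusted p 0.096 and 0.6). Of the 6 mu genes tested, 4 were lower and 0 higher, a share called that lies near the 69.3% of all genes. Without male 4, Gstm4 was called lower as well (log2 -0.47, limma adjusted p 0.0115).

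Gstp1, the pi-class enzyme, had the highest mean level per kilobase of the 10 genes in both groups. It was at 246, 270 and 272 in the male libraries and at 244, 259 and 260 in the female ones, so the ranges overlapped. The means of 263 ± 14.4 and 254 ± 9.07 (SD, n = 3) gave a log2 difference of -0.05 (limma adjusted p 0.532) with a 95% interval of -0.19 to 0.10. Under quantile normalization the sign was positive (0.07). Its copy Gstp2 was at 4.15 to 5.19 and 2.99 to 5.77 and was not called (limma adjusted p 0.743). Gstp1 shares 62.3% of its 50-base stretches with Gstp2, and the coding parts differ at 12 of 630 bases with a longest identical run of 300. Of its stretches 45.6% also occur in the pseudogene Gstp-ps, which was not analysed here, and these lie within those shared with Gstp2. The next lines give 60 bases of exon 5 of each on the minus strand of GRCm38 (chr19:4036694-4036753 and chr19:4040988-4041047), with 5 of the 12 mismatches in capitals, as a stretch in which a read can tell the copies apart.
Gstp1, exon 5: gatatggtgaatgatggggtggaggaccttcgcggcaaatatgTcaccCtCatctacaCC
Gstp2, exon 5: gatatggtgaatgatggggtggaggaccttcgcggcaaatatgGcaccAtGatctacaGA

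The sum of Gstp1 and Gstp2 was 267 ± 14.8 against 259 ± 7.96 (SD, n = 3) and was not called either (limma adjusted p 0.528).

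Gsto1 belongs to the omega class, which uses a cysteine in its active site and reduces dehydroascorbate and protein-bound glutathione rather than joining glutathione to drugs. It was at 147, 154 and 156 in the male libraries and at 281, 251 and 253 in the female ones. The groups were far apart beside a spread of 4.35 and 17.1 (SD, n = 3): the female level was 1.72-fold higher, a log2 difference of 0.78 (SE 0.06, limma adjusted p 1.35e-05). Gsto2, its neighbour on chromosome 19, was at 0.207 to 0.883 and 0.760 to 1.16 and did not pass the filter, which asked for 3 or more libraries with a value of 1 or higher.

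Gstt1 encodes a theta enzyme known for its action on small halogenated compounds. It held 46, 64 and 79 reads in the male libraries (1.91, 2.44 and 2.79 as normalized read counts) and 10, 3 and 2 reads in the female ones (0.415, 0.133 and 0.0950). Female 5 and female 6 were thus at or under 3 reads. The means were 2.38 ± 0.444 and 0.214 ± 0.175 (SD, n = 3), and the log2(value + 1) difference was -1.48 (SE 0.15, limma adjusted p 4.96e-05). The other theta genes, on chromosome 10 like Gstt1, were closer between the groups. Gstt3 was at 4.27, 6.37 and 6.99 against 4.11, 3.23 and 3.42 and was called lower (log2 -0.57, limma adjusted p 0.0162), but it was not called in 4 of the 6 fits that left out a library: its adjusted p was 0.0549 without male 5, 0.0601 without male 6, 0.0617 without female 5 and 0.0537 without female 6. Gstt2 was at 2.20, 4.19 and 4.20 against 2.20, 2.43 and 2.14 and was not called (limma adjusted p 0.0698), with male 4 at the level of the female libraries. Without male 4 it was called lower (log2 -0.68, limma adjusted p 0.000621). On the recovered reads of all 6 libraries it was called lower by edgeR (adjusted p 0.0495) and DESeq2 (adjusted p 0.0463), but not by voom (adjusted p 0.0843).

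The membrane-bound transferases split. Mgst1, an abundant enzyme of the endoplasmic reticulum and the outer mitochondrial membrane, was at 93.0, 85.7 and 90.1 in the male libraries and at 86.9, 91.7 and 106 in the female ones. The ranges overlapped, and the log2 difference was 0.08 (limma adjusted p 0.426) with a 95% interval of -0.11 to 0.27. Without female 6 it was -0.0041. Mgst3, a microsomal enzyme with peroxidase activity, was at 14.8, 17.5 and 17.4 against 5.02, 5.88 and 6.70. Its groups were apart, the female mean was 35.4% of the male mean and the log2 difference was -1.36 (SE 0.12, limma adjusted p 2.13e-05).

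The relatives of the microsomal enzymes that make lipid mediators were also lower. Mgst2, which can make leukotriene C4, was at 4.06, 9.0 and 7.80 in the male libraries and at 0.540, 0.442 and 0.712 in the female ones (log2 -2.29, SE 0.24, limma adjusted p 4.85e-05). Ptges, the inducible prostaglandin E synthase, was at 221, 284 and 322 against 60.6, 54.9 and 45.3 (log2 -2.33, SE 0.15, limma adjusted p 2.96e-06). Ltc4s, the leukotriene C4 synthase, held 37, 64 and 68 reads against 0, 5 and 4. Alox5ap, which hands arachidonic acid to lipoxygenase, held 29, 50 and 57 reads against 4, 3 and 0. Both were called lower, with limma adjusted p of 6.78e-05 and 0.00011. Mgst2, Ltc4s and Alox5ap had 0 female libraries reaching a value of 1 and entered the test through the male libraries alone. Of the 6 microsomal-type genes tested, 5 were lower and Mgst1 was not called, and without these 3 genes 2 of 3 were lower, beside 34.6% of all genes. Hpgds, a prostaglandin D synthase of the soluble family, held 1 to 6 reads in each library and was not tested.

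The single genes of further classes were Gstz1, which acts in tyrosine breakdown, Gstk1, a mitochondrial and peroxisomal enzyme, and Gstcd, which carries only a transferase-like domain. Gstz1 was at 12.2 to 13.7 in the female libraries against 17.6 to 20.7 (log2 -0.52, limma adjusted p 0.00149) and Gstk1 at 2.41 to 3.45 against 7.21 to 8.05 (log2 -1.16, limma adjusted p 6.47e-05). Gstcd was slightly higher, at 15.2 to 16.4 against 11.9 to 12.2 (log2 0.36, limma adjusted p 0.00464). Gsta5, Gsta6, Gsta13, Gstm3, Gstp3 and Gstt4 were not analysed here.

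**Figure D2:**
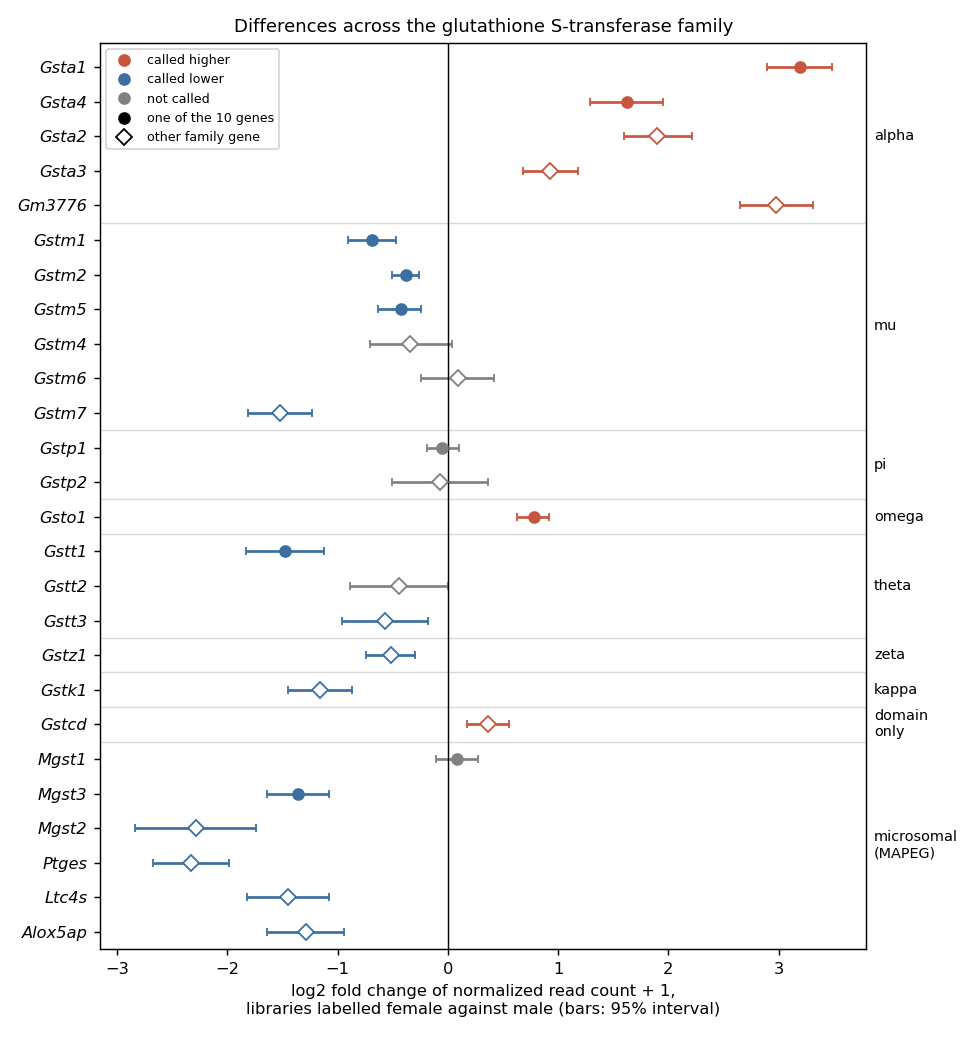
Log2 difference of normalized read count + 1 between the libraries labelled female and male with its 95% interval (horizontal axis), for the 10 genes (filled circles), the other 15 tested family genes and Gm3776 (open diamonds), ordered by class. Points right of 0 are higher in the libraries labelled female: every alpha gene lies there, whereas the called mu, theta and microsomal genes lie to the left.

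Counted together, 8 of the 10 genes were called: 3 had the higher level, and 5 the lower level, in the libraries labelled female. The share of the 10 lies near the 69.3% of the table. The groups did not overlap for the same 8 genes, beside 74.1% of all genes tested. Gsta1 (1 of 3 male libraries reaching a value of 1) and Gstt1 (0 of 3 female libraries) passed the filter through the group in which they were high, and without them 6 of 8 were called, 2 higher and 4 lower. The median log2 difference of the 10 was -0.21, against 0.01 for all genes. The median size of the difference regardless of sign was 0.73 against 0.46, and 4 of the 10 (Gsta1, Gsta4, Gstt1 and Mgst3) differed by at least 1 on the log2 scale, as did 20.6% of all genes tested. Without Gsta1 and Gstt1 the median size was 0.56, and 2 of 8 differed by at least 1. Of the other 15 family genes tested, 3 were higher and 8 lower, and without Gsta2, Mgst2, Ltc4s and Alox5ap 2 of 11 were higher and 5 lower.

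In the authors' deposited table, where 25.8% of 13595 genes have a false discovery rate under 0.05, the same 4 of the 10 genes pass. The authors' deposited table gives Gsta1 a fold change of 16.4 (false discovery rate 5.22e-07), Gsta4 3.22 (0.00346), Gstt1 -10.7 (0.000126) and Mgst3 -2.82 (0.0161). Gsto1 has a fold change of 1.72 and a false discovery rate of 0.0572 in the authors' deposited table. The rates of Gstm1, Gstm2 and Gstm5 lie between 0.216 and 0.347 in the authors' deposited table, so these 4 calls are not shared with that comparison.

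Levels of different genes were compared per kilobase of the longest coding transcript. In the male libraries the order was Gstp1 (320 ± 17.5 normalized reads per kilobase), Gstm1 (137 ± 4.91), Gsto1 (129 ± 3.68), Gstm2 (94.1 ± 1.48), Mgst1 (76.8 ± 3.15), Gstm5 (42.4 ± 3.66), Gsta4 (22.7 ± 0.778), Mgst3 (15.1 ± 1.39), Gstt1 (2.15 ± 0.402) and Gsta1 (1.25 ± 0.284), each ± SD with n = 3. No neighbours in that order overlapped over the 3 libraries. In the female libraries Gstp1 was again first (310 ± 11.1), Gsto1 came next (221 ± 14.5), and Gstm1 (85.2 ± 12), Mgst1 (81.3 ± 8.44), Gsta4 (73.0 ± 17.2) and Gstm2 (72.0 ± 1.47) followed, each overlapping its neighbour. Gstm5 (31.1 ± 1.66), Gsta1 (20.6 ± 2.14), Mgst3 (5.35 ± 0.763) and Gstt1 (0.194 ± 0.158) stood below these, with ranges apart. By this measure Gsta4 was 7th in the male and 5th in the female order, and Gsta1 10th and 8th. Several places depended on the length used: per kilobase of coding sequence Gsta4 was 8th (33.2, overlapping Mgst3 at 36.1) and 6th (107, overlapping Gstm2 at 117). By coding length Mgst1 also stood above Gstm2 in the male order (193 and 153) and above Gstm1 in the female order (204 and 168, with overlapping ranges), and Gstp1 (404) and Gsto1 (363) overlapped in the female libraries. Gsta1 kept its 2 places, but these rest on how reads were divided among its copies. Gm3776 alone had means of 1.67 (male) and 21.2 (female) per kilobase of transcript, and the summed copies were not ranked.

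The summed level per kilobase of the 10 genes was 819, 848 and 854 in the male libraries and 875, 882 and 942 in the female ones. The groups did not overlap, with means of 840 ± 18.6 and 900 ± 36.9 (SD, n = 3). The pi class (Gstp1) held 38.1% ± 1.26 of it in the male and 34.4% ± 1.20 in the female libraries (SD, n = 3). The mu class stood at 32.6% ± 0.977 against 20.9% ± 0.627, the alpha class stood at 2.85% ± 0.0907 against 10.4% ± 1.31, and the omega class at 15.3% ± 0.101 against 24.7% ± 2.30. The microsomal pair made up 10.9% ± 0.421 and 9.61% ± 0.627, and Gstt1, the only theta gene of the 10, 0.256% ± 0.0427 and 0.0219% ± 0.0183. Each class counts here only its genes among the 10, so alpha is Gsta1 and Gsta4 and mu is Gstm1, Gstm2 and Gstm5. The theta genes left out, Gstt3 and Gstt2, had means of 3.13 and 1.57 per kilobase (male) and 1.91 and 1 (female). With coding length in place of transcript length, Gstp1 held 30.2% and 27.9%.

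**Figure D3:**
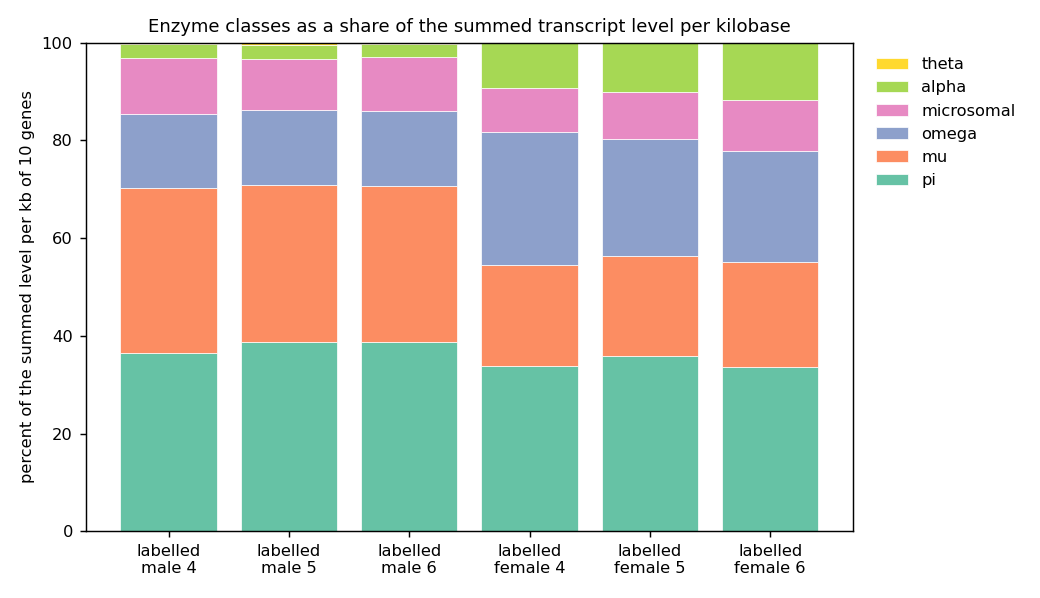
Share of the summed level per kilobase of the 10 genes (vertical axis, percent) held by the genes of each class among the 10, in stacked bars for each library. In the 3 libraries labelled female the omega and alpha parts are larger and the mu part is smaller, while the pi part at the foot of the bars changes little; theta is too small to see in most bars.

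RefSeq promoter windows (GRCm38.p6), cut here to 250 bases before and 30 after the start, were found for 9 of the 10 genes, Gsta4 excepted. They were searched on both strands for the letters GCGTG, the core that AHR binds, ACGTG, a core of the hypoxia-inducible factors, and TGANNNNGC, the core of the antioxidant response element that NRF2 binds. GCGTG was found for 5 of the 9 (Gsta1, Gstm1, Gstm5, Gstp1 and Mgst3) and in 30.8% of all 32851 windows of this length. TGANNNNGC was found for 5 (Gsta1, Gstm5, Gstp1, Gstt1 and Mgst1) and in 39.1% of all windows, and ACGTG for 3 (Gstm1, Gstp1 and Gstt1) and in 18.5%. The windows of Gstm1 and Mgst1 are 2 each, and a gene counts if either holds the letters. Of the 5 genes with GCGTG, 1 was called higher, 3 lower and 1 was not called; of the 5 with TGANNNNGC these counts were 1, 2 and 2, and of the 3 with ACGTG they were 0, 2 and 1. A match is a description of letters and no sign of binding.

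The windows of Gsta1 (chr9:78230419-78230698, plus strand), Gsta2 (chr9:78347116-78347395, minus strand) and Gstp1 (chr19:4037883-4038162, minus strand) are shown because the first pair were both called higher and the last was not called. Capitals mark the matches. Gsta1 and Gsta2 each have GCGTG close to the start, its first base 2 and 7 bases before it. As near-identical copies they are not separate observations. In Gm3776, the other copy called higher, GCGTG begins at base 12 after the start. The same letters lie 22 bases before the start of Mgst3 and 38 before that of Gstm5, both called lower, and were not found in the window of Gsta3, which was called higher. In Gsta1 the letters TGANNNNGC begin 126 bases before the start and were not found in Gsta2. In Gstp1, which was not called, ACGTG and TGANNNNGC begin 80 and 74 bases before the start, and a GCGTG at 13 bases overlaps a second TGANNNNGC, on the opposite strand, that begins at 9 bases.
Gsta1 promoter: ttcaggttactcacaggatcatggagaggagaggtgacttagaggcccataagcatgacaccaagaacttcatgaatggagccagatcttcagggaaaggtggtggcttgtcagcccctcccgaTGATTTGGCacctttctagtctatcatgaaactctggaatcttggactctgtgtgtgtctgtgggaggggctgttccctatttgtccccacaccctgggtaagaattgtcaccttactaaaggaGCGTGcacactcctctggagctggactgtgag
Gsta2 promoter: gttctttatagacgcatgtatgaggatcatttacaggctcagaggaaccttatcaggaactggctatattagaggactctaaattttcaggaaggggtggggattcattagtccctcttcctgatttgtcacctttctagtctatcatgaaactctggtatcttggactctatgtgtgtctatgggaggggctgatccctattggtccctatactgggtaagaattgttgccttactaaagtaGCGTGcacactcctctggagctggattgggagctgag
Gstp1 promoter: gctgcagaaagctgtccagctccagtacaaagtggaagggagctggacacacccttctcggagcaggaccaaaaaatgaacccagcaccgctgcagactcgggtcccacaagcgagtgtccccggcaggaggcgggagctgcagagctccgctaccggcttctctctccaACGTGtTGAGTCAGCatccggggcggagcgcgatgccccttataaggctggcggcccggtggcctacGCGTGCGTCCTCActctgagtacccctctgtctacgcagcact

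Genes that supply the glutathione used by these enzymes were described from a list of 22, of which 20 were tested: 9 had higher and 7 lower levels where the label was female, with a median log2 difference of 0.14. The 16 called of 20 stand beside 69.3% of all genes, and without Dpep1, which passed the filter through the male libraries and was looked up after the values were seen, 15 of 19 were called. Genes of synthesis were among the higher ones. Gclc and Gclm, the catalytic and modifier subunits of the rate-limiting ligase, were at 1214 to 1386 against 677 to 723 (log2 0.85, limma adjusted p 1.74e-05) and at 230 to 258 against 76.4 to 83.5 (log2 1.57, limma adjusted p 3.49e-07). Gss, which completes the tripeptide, was at 40.1 to 53.0 against 20.0 to 21.6 (log2 1.11), and Slc7a11, the importer of cystine, at 485 to 539 against 256 to 333 (log2 0.74). Chac1, which degrades glutathione inside the cell, was the most different of the list (9.74 to 12.3 against 2.07 to 2.93, log2 1.75, limma adjusted p 9.58e-06). The 5 largest differences in the lower direction were those of Ggt7 (log2 -1.20), the glutaredoxin Glrx (-1.12), the peptidase Anpep (-0.73), Oplah (-0.70) and Chac2 (-0.64), the last 2 of which act in glutathione breakdown and recycling of its parts.

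Among exporters that can carry glutathione conjugates out of the cell, 7 of 9 listed genes were tested, 3 were higher and 1 lower, so that 4 of 7 were called beside 69.3% of all genes. Abcc4 was at 139 to 153 against 35.3 to 40.0 (log2 1.93, limma adjusted p 1.94e-07) and Abcc1 at 498 to 540 against 294 to 366 (log2 0.67, limma adjusted p 0.000158). Abcc3 was at 23.8 to 25.4 against 32.7 to 39.6 (log2 -0.50, limma adjusted p 0.00113).

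The regulators did not move in 1 direction. Of 9 tested, 3 were higher and 5 lower, which is 8 called beside the same 69.3%. Nfe2l2, which encodes NRF2, was at 353 to 394 against 569 to 580 (log2 -0.64, limma adjusted p 3.46e-05), its inhibitor Keap1 at 47.9 to 54.9 against 61.7 to 72.0 (log2 -0.33) and Bach1, a repressor at the same sites, at 53.8 to 59.0 against 119 to 130 (log2 -1.12, limma adjusted p 1.64e-06). The small MAF partners Mafk and Mafg were higher (log2 1.14 and 0.84). Ahr and its partner Arnt were lower (log2 -0.27 and -0.57), and the AHR repressor gene Ahrr was higher, at 1.59 to 1.71 against 0.373 to 0.706 (log2 0.77, limma adjusted p 0.000671). Ahrr passed the filter through the female libraries alone, and without it 7 of 8 regulators were called, 2 higher and 5 lower.

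**Figure D4:**
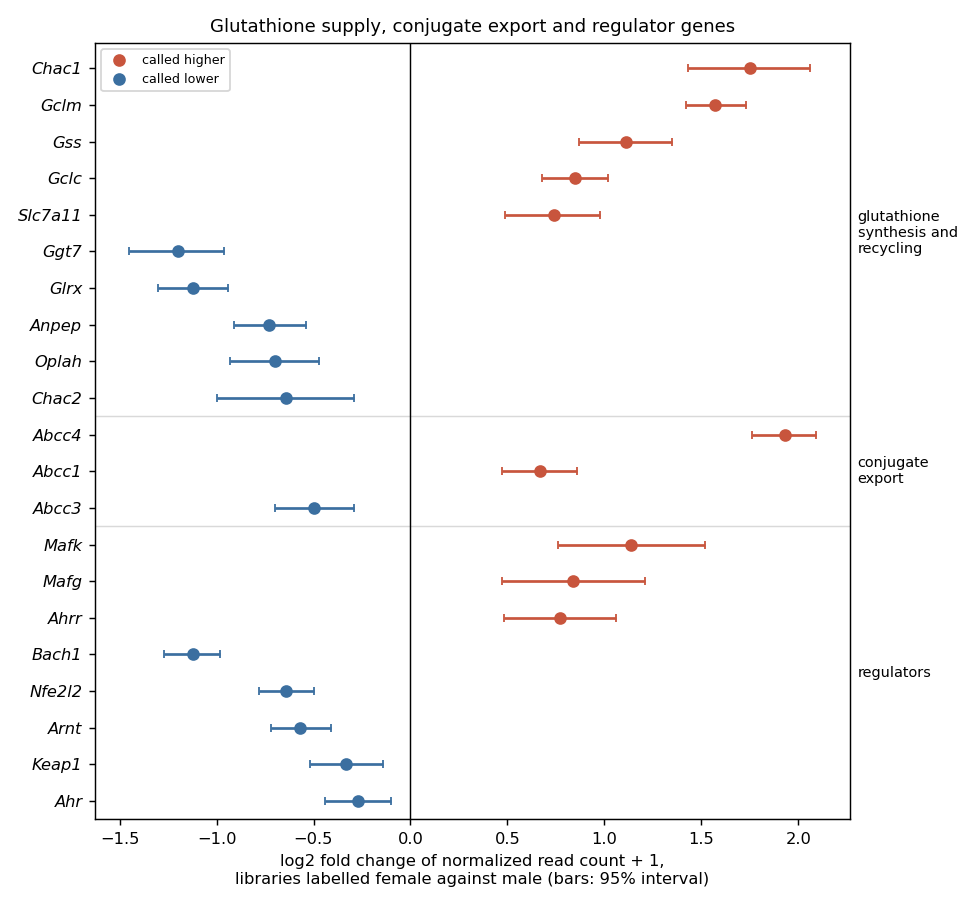
Log2 difference of normalized read count + 1 between the libraries labelled female and male with its 95% interval (horizontal axis), for the named called genes of glutathione synthesis and recycling, conjugate export and regulation. The synthesis genes Gclc, Gclm, Gss and Slc7a11 and the exporters Abcc4 and Abcc1 lie to the right of 0 (higher in the libraries labelled female), and Nfe2l2, Bach1, Arnt, Keap1 and Ahr lie to the left.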

How the data were processed

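Poly(A) RNA of 6 libraries was sequenced, per the labels' protocols. The submitters' processing notes name Bowtie2, RSEM, edgeR and the build mm39, without versions or roles, and the annotation is not given in the sources used here. The deposited signal columns hold reads scaled by a factor per library: 100% of their values in each of the 6 columns are whole multiples (tolerance 0.01) of the smallest value above 0, so reads could be recovered by division. Per the file headers, 1 score column gives the authors' fold change with a sign for direction, and each gene also has a p-value and a false discovery rate deposited by the authors. Columns were assigned by title, and 0 were left without a sample.

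As the file holds normalized values, limma 3.58.1 (R 4.3.3, eBayes with trend) was fitted to log2(value + 1) over the 12568 genes that reached a value of 1 in 3 or more libraries, with Benjamini-Hochberg adjustment over all of them and a threshold of 0.05. edgeR 4.0.16 and DESeq2 1.42.0 were run on the recovered reads as alternatives (edgeR called 8975 of 13199 genes), beside voom, other scalings, filters and pseudocounts, the replicate block and each library left out. On simulated reads for the sex contrast (12447 genes, 200 changed by a log2 size of 1) limma recovered 200, with 7 false calls among 207. The simulation gave both groups the same spread and changed few genes, none of them weakly read. These settings differ from the data, so it gives no rate of false calls for them. The members and lists were chosen with earlier results of these data known. Named were the 10 members, the other family genes and, of each pathway list, up to 5 called genes with groups apart in each direction, plus Nfe2l2, Keap1, Ahr, Xist, Pecam1, Alb and Pdgfrb. 1 gene that the rule names is not reported here. Lengths and shared 50-base stretches came from GENCODE M21 (GRCm38), which is not the build named by the submitters.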

Additional observations from a re-analysis of the deposited data

How the results depend on the processing

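With all 6 libraries, 9 of 10 alternatives left the count of called genes within 1.5 times of 8704 and the count of the 10 transferases called at 8, or at 7 of 9 tested with at least 10 reads in every library, where Gstt1 was dropped. The exception added a minimum log2 difference of 1, a stricter rule that passed 2589 genes and 4 of the 10. Quantile normalization moved the share of all calls that were higher from 50% to 55.4%, and the direction of the 8 called transferases stayed. Leaving out each library gave 7373 to 9113 genes and 7 to 8 of the 10 (3 higher in each). With any of the male libraries left out, Gstt1 did not pass the filter. Of 156 values recomputed for the 10 genes, 150 kept direction and call, 4 were lost to the fold threshold and 2, both of uncalled genes, changed sign: Gstp1 under quantile normalization (0.07) and Mgst1 without female replicate 6 (-0.0041). Over the fits that each left out 1 library, 3 uncalled genes beyond the 10 also changed sign: Gstm6 ran from -0.03 (without male replicate 4) to 0.20, Gstp2 from -0.25 to 0.14 (without female replicate 6) and Ddx3y from -0.21 to 0.13 (without male replicate 5), and Mgst1 ran up to 0.14. The cause was not tested. The log2 difference of Gstt1 ran from -3.57 to -1.45 and that of Gsta1 from 3.18 to 4.03 over the alternatives with all libraries, the smaller pseudocount and the tests on recovered reads giving the larger sizes. The same alternatives moved other weakly read genes by over 1.5 times, up to 4.27 for Gsta2, -4.40 for Ltc4s, -4.28 for Alox5ap, -3.64 for Mgst2 (tests on recovered reads only) and 1.54 for Ahrr, with the direction and call kept. With coding length, Gstp1 held 30.2% (male) and 27.9% (female) of the summed level per kilobase. The sums of Gsta1 with its copies were chosen after seeing the data and gave 3.40 with Gm3776. Libraries sharing a replicate number did not deviate together (correlations of -0.094, -0.03 and -0.17). Fitting the replicate block, 8314 genes and 8 of the 10 were called, and no call of a transferase changed. Depth limits Gstt1, Ltc4s, Alox5ap and Gsta2, which had 10 reads or fewer in at least 1 group.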

Other observations

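Male 4 differed from male 5 and male 6 in several weakly read family genes. Mgst2 held 98 reads in male 4 and 236 and 221 in the others, Gstt2 held 53 against 110 and 119, and Gstt3 held 103 against 167 and 198. The same library had the highest Mafg (34.2 against 22.3 and 21.3) and the lowest Mafk (34.2 against 51.3 and 53.8) of its group, and its Acta2 was at 134 against 56.4 and 45.9. Among the libraries labelled female, female 6 was the highest in Gsta4 (90.4), Gstm1 (128), Mgst1 (106) and Gclc (1386) and the lowest in Gsta1 (16.3), Ptges (45.3) and Gss (40.1).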
